A study of Homo sapiens with 12 samples.

Results

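The gene expression of untreated Huh7 cells was described from 3 RNA-seq samples out of the 12 in the study, with all 63677 genes of the count table. Huh7 is an established line of cells grown from a human liver carcinoma. The samples were chosen by their labels as the non-treated controls, which received medium without any particle or drug for 6 h after 24 h of culture. The other 9 samples, 3 for each treatment with graphene oxide (GO), GO–Rg3 or GO–Rg3–DOX, enter no value given here. The cells came from a single cell line and no sample of liver or gut was measured with them, so levels are described as they stood in these cells and not as higher or lower than in a tissue. The labels do not say that the 3 samples were grown from separate cultures, and their spread may be technical.

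Total counts were 34750147, 28421737 and 38877420 in replicates 1, 2 and 3. Levels are given as CPM, the counts scaled by that total to 1e6 counts in each sample, as mean ± SD of the 3 samples. A count of 1 was worth 0.0257 to 0.0352 CPM, and 3 counts, taken as the floor in each library, were worth 0.0772 to 0.106 CPM. A gene with 3 or fewer counts in every sample is said to lie at the floor. Long transcripts give more reads, so the levels of different genes are compared as CPM per kilobase (kb) of the gene's merged exons. Where genes are ordered by CPM, as for the share of counts or the lowest members of a list, the order is one of reads and not of transcripts. Reads are not independent molecules, and these limits cover counting error only. In bulk RNA, few cells with much of a transcript and many cells with little of it cannot be told apart.

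The hepatocyte is the liver cell that makes most plasma proteins, such as albumin, the clotting factors and the apolipoproteins that carry fat in blood, and it also runs the urea cycle, makes glucose and bile acids and detoxifies drugs. Alpha-fetoprotein is a major plasma protein of the fetus, made by yolk sac and fetal liver. Its gene is shut down after birth and is often active again in liver cancer. A circuit of transcription factors that includes HNF4A and the FOXA proteins maintains the hepatocyte program. CDX2 and its target ISX are homeobox factors of the intestinal lining, an epithelium that arises from the same embryonic endoderm as the liver.

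The marker genes of both tissues were read in all samples. AFP, which encodes alpha-fetoprotein, was at 13531, 13488 and 13288 CPM in replicates 1, 2 and 3. ALB, which encodes albumin, was at 4551, 4525 and 4503 CPM, and APOB, the structural protein of very-low-density lipoprotein, was at 1476, 1996 and 1756 CPM. The AFP and ALB values lay close together, while APOB was lowest in replicate 1. CDX2 was at 122, 111.3 and 114 CPM and ISX at 73.7, 72.7 and 76.3 CPM, so both intestinal factors were read in every sample far above the floor. In the GRCh37 annotation AFP lies at chr4:74296855-74321891 and ALB at chr4:74262831-74287199, on the same strand of chromosome 4. APOB lies at chr2:21224301-21266945, CDX2 at chr13:28535055-28543452 and ISX at chr22:35462129-35483380. Per kb the levels were 4197 ± 40.5 CPM per kb for AFP, 1319 ± 7.07 CPM per kb for ALB, 117.5 ± 17.5 CPM per kb for APOB, 32.9 ± 1.55 CPM per kb for CDX2 and 21.9 ± 0.543 CPM per kb for ISX. These hepatocyte markers were thus read in a line of liver carcinoma cells, with intestinal factors beside them. The markers were named in advance, and other hepatocyte genes described below, such as F9 and CYP7A1, had no count.

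AFP stood above its adult counterpart. Per kb of merged exons it was 3.18 ± 0.0165 times ALB, with 3.19, 3.19 and 3.16 in the single samples, and per kb of the canonical transcripts it was 2.80 ± 0.0145 times ALB. The other members of this albumin family in the same gene cluster were lower, with GC, which carries vitamin D, at 58.2 ± 1.39 CPM per kb and AFM, which encodes afamin, at 1.07 ± 0.0700 CPM per kb.

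The promoters of AFP and ALB are shown because these were the nuclear genes highest per kb that held the hepatic motif searched for. They were taken from RefSeq on GRCh38.p14 as the 250 bases before the start of the gene, both on the plus strand, at chr4:73435971-73436220 for AFP and chr4:73404037-73404286 for ALB. That of SERPINA1, the gene of alpha-1-antitrypsin, is added from one of its listed starts, on the minus strand at chr14:94388603-94388852. Capitals mark GTTAAT, letters known from promoters of liver genes, and TATAAA, the TATA box. The sequences were chosen for holding GTTAAT and do not show how common it is. Neither motif was found in the 250 bases before the listed starts of TF and ISX or before another listed start of SERPINA1.
AFP: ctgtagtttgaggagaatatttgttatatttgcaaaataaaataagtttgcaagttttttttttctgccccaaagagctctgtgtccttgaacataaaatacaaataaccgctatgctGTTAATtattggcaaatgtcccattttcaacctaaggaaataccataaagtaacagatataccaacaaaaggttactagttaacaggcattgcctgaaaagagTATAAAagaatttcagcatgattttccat
ALB: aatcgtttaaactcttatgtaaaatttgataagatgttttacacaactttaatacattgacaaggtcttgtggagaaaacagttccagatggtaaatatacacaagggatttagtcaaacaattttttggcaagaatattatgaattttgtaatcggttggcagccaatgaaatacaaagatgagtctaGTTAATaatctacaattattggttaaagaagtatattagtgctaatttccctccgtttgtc
SERPINA1: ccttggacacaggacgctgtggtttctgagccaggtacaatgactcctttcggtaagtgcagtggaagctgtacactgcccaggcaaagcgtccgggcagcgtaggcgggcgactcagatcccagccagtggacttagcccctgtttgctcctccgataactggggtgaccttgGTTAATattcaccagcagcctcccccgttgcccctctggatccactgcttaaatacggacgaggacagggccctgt

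In the AFP promoter GTTAAT began 132 bases and TATAAA 29 bases before the start. GTTAAT began 61 bases before the start in ALB and 76 bases before it in SERPINA1, and neither window held TATAAA. Over windows from 250 bases before to 50 bases after the start, read on both strands and for any start listed for a gene, GTTAAT was present in 2259 of 27305 genes (8.27%) and in 582 of the 9885 matched genes with at least 10 counts in every sample (5.89%). By list, it was present in 7 of 19 matched coagulation genes, namely F2, F13B, FGA, FGB, KLKB1, PLG and PROC, in 5 of 14 plasma carriers, in 5 of 14 complement genes and in 9 of 27 gut genes, SI, MUC13, ANPEP and CDX2 among them. Read on the strand of the gene alone, 1 coagulation gene, 1 complement gene, 5 plasma carriers and 5 gut genes held it. On both strands it was present in 0 of 12 genes of the urea cycle and nitrogen list, 1 of 13 of cholesterol and fatty acid synthesis and 1 of 12 of fatty acid oxidation. It was found in none of the 10 housekeeping genes matched. Other lists on both strands were protease inhibitors with 3 of 15, apolipoproteins with 3 of 14 and drug metabolism with 6 of 32. Liver transcription factors had it in 3 of 20, bile acid genes in 3 of 16 and amino acid breakdown in 4 of 20. Fetal genes had it in 3 of 15 and acute phase genes in 2 of 7. Among the 50 nuclear genes highest per kb, GTTAAT was present in 2 of 36 matched, AFP and ALB (5.56%), against the 5.89% above. TATAAA was present in 3819 of all genes (13.99%) and in 865 of the 9885 matched genes with at least 10 counts in every sample (8.75%). It was present in 15 of 32 drug metabolism genes and in 7 of 36 matched genes among the 50 highest per kb. These are letter matches, were not tested and say nothing of binding.

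The counts were spread over many genes but headed by few. Of the 63677 genes, 35302 (55.4%) had no count in any sample and 43481 lay at the floor, zeros included. At least 10 counts in every sample were found for 15151 genes. A mean of at least 1 CPM was reached by 13171 genes, of at least 10 CPM by 9223, of at least 100 CPM by 2209 and of at least 1000 CPM by 82. Among 19488 protein-coding genes, 11650 (59.8%) reached 1 CPM and 3716 (19.1%) had no count, with a median of 6.01 CPM. Protein-coding genes held 97.6% of counts and long non-coding RNAs 0.821%. Together 18 genes held 10% of all counts, 812 genes held 50% and 5406 genes held 90%.

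Mitochondrially encoded genes took 5.81% ± 0.489 of counts, with 5.31%, 5.84% and 6.28% in replicates 1, 2 and 3. The 84 cytosolic ribosomal protein genes took 5.56% ± 0.0575, and the plasma protein genes of 5 lists described below took 3.73% ± 0.0189. The 10 highest genes held 7.25% ± 0.331 of counts. Of these shares that of the mitochondrial genes differed most between samples, and replicate 1 had the lowest.

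By CPM alone, 11 of the 20 highest genes were nuclear and 9 mitochondrially encoded. AFP was first at 13436 ± 129.5 CPM. MT-CO1, a subunit of cytochrome c oxidase, was at 11278, 13218 and 14026 CPM. The other mitochondrial genes were MT-ND4, MT-CO3, MT-CO2, MT-ATP6, MT-RNR2, MT-CYB, MT-ND5 and MT-ND2, from 7337 ± 794 CPM down to 3407 ± 184 CPM. Besides AFP and ALB the nuclear genes were EEF1A1, an elongation factor of translation, at 8309 ± 122 CPM, FTL, the light chain of the iron store ferritin, at 4521 ± 143 CPM, ACTB, which encodes actin, at 4069.6 ± 205 CPM, the chaperones HSPA8 at 3962 ± 39.6 CPM and HSP90AB1 at 3409 ± 46.5 CPM, the secreted matrix protein FN1 at 3523 ± 293 CPM, the glycolytic genes GAPDH at 3388 ± 32.97 CPM and ENO1 at 2881 ± 28.6 CPM, and the ribosomal RPSA at 3309 ± 98.1 CPM. A fetal plasma protein thus headed a list made mostly of mitochondrial genes and of genes that most cells use.

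**Figure D1:**
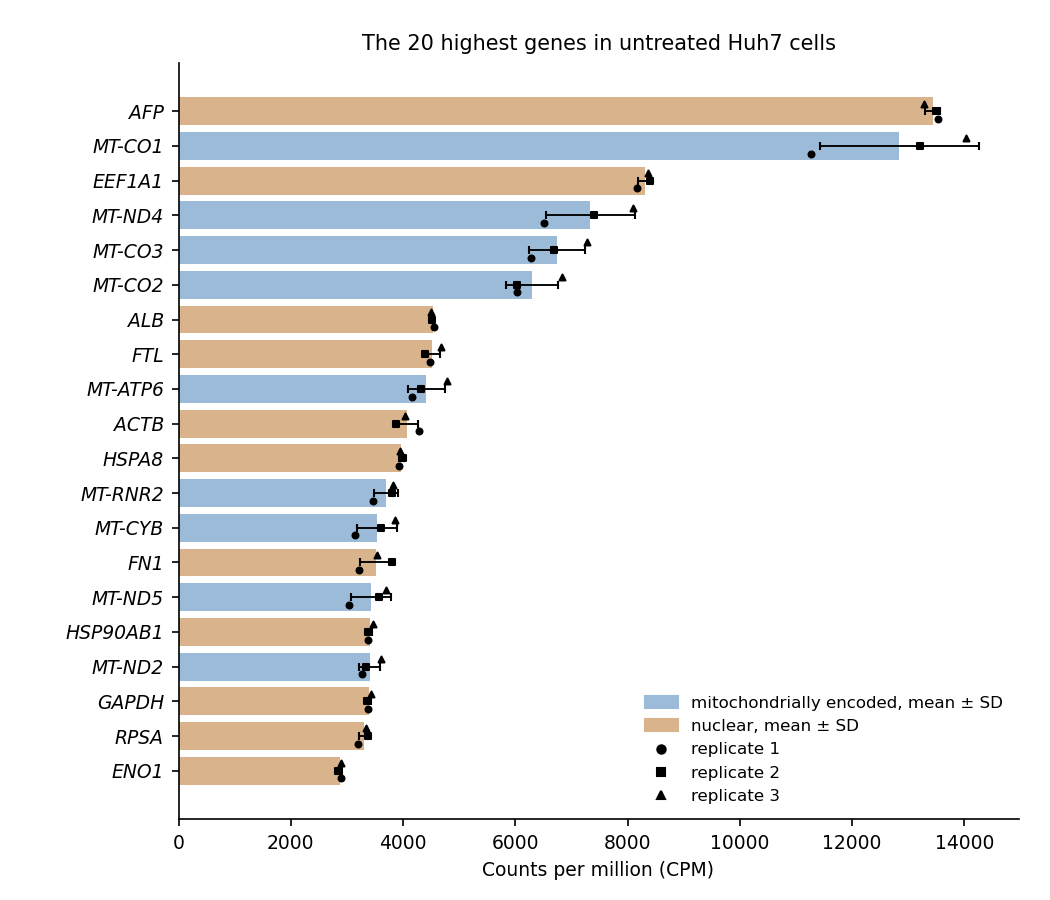
CPM of the 20 genes with the highest mean in 3 samples of untreated Huh7 cells. Bars show the mean and error bars the SD, circles, squares and triangles show replicates 1, 2 and 3, and colours separate mitochondrially encoded from nuclear genes. AFP heads the list at 13436 CPM, and the samples of MT-CO1 lie farther apart than those of AFP or ALB.

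Per kb of merged exons the order of the nuclear genes changed. FTL was first at 5190.1 ± 164 CPM per kb, AFP second at 4197 ± 40.5 CPM per kb and ALB sixth. Others of the 20 highest were RPS12 at 2333, TMSB10, which binds actin monomers, at 1501, GAPDH at 1414, HSP90AB1 at 1144, the glutathione transferase GSTP1 at 1025, ACTB at 924, VTN, which encodes the plasma adhesion protein vitronectin, at 923, the retinal dehydrogenase ALDH1A1 at 899.7, EEF1A1 at 826, HSPA8 at 817, AMBP at 815, RPS27 at 743, the peroxidase PRDX1 at 728 and RPS2 at 642 CPM per kb. On the same strand VTN shares 17.3% of its exon bases and RPS2 25.9% with other counted genes. The pseudogenes MTATP6P1 at 848 and CTD-2328D6.1 at 714 CPM per kb also ranked there. MTATP6P1 is a nuclear copy of mitochondrial sequence, and pseudogenes can take reads of the genes they resemble, so both levels are uncertain. Per kb of the canonical transcript, AFP passed FTL, with 5538 against 5190.1 CPM per kb, and ALB fell to rank 11. The order of AFP and FTL therefore rests on the length used, as does that of other genes. RPSA rose from rank 40 to 4 and RPLP0 from 22 to 8, while VTN fell from 11 to 35.

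Programs of hepatocytes, of fetal liver and gut, and markers of other cells were read through 22 gene lists with 487 different genes. Of these, 267 reached a mean of 10 CPM and 74 lay at the floor, and 42 of the latter had no count at all. As a reference, 45.9% of protein-coding genes reached 10 CPM and 27.9% lay at the floor. The lists were compiled by hand with earlier results of these data known, so their counts describe these cells and were not tested against other genes.

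Plasma carrier proteins took 2.38% ± 0.0166 of counts, with 14 of 20 members at 10 CPM or more and a median of 53.5 CPM. Per kb the highest after AFP and ALB were AMBP, the precursor of alpha-1-microglobulin and bikunin, at 815 ± 10.9 CPM per kb and RBP4, the carrier of retinol, at 554 ± 13.6 CPM per kb. TTR, which binds RBP4 and thyroxine, was at 130.4 ± 2.93 CPM per kb, and TF, the iron carrier transferrin, was at 2704 ± 24.6 CPM or 104 ± 0.944 CPM per kb. The TF value per kb rests on an exon model of 26038 bases. HP, which binds free haemoglobin, was at 12.1 ± 0.369 CPM. The lowest members were SHBG, a carrier of sex steroids, at 0.579 ± 0.0881 CPM, IGFBP2 at 1.16 ± 0.0959 CPM, IGFBP4 at 1.89 ± 0.256 CPM and SERPINA7, the thyroxine-binding globulin, at 1.996 ± 0.189 CPM. None of the 20 lay at the floor.

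Of the plasma protease inhibitors, 15 of 22 reached 10 CPM, with a median of 94.3 CPM. SERPINA1 was at 354 ± 6.48 CPM per kb, ITIH2, a heavy chain that is linked to bikunin, at 322 ± 12.7 CPM per kb and SPINK1, a trypsin inhibitor, at 95.2 ± 2.997 CPM per kb. The inter-alpha-trypsin heavy chains were uneven, with ITIH1 at 1.49 ± 0.154 CPM per kb, ITIH3 at 0.111 ± 0.0407 CPM per kb and ITIH4 at 1 count in the 3 samples together. ITIH4 shares 70.3% of its exon bases with another counted gene on the same strand, RP5-966M1.6, which itself had 22 counts. SERPINA3, an acute phase antichymotrypsin, was at 0.525 ± 0.116 CPM and FETUB at 0.426 ± 0.119 CPM, and 31.7% of the exon bases of SERPINA3 are shared in the same way. How much these overlaps lowered the counts was not tested.

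Apolipoproteins and the genes of lipoprotein assembly took 0.467% ± 0.0244 of counts, with 15 of 22 members at 10 CPM or more. The highest per kb were APOA2 at 551 ± 26.1 CPM per kb and APOA1 at 513 ± 7.34 CPM per kb, the main proteins of high-density lipoprotein, followed by MTTP, which loads lipid onto apolipoprotein B, at 167 ± 2.72 CPM per kb. APOE was at 209, 159 and 179 CPM and so differed between samples in the opposite order to APOB. APOC3 was at 36.4 ± 1.15 CPM and APOC2, which activates lipoprotein lipase, at 2.24 ± 0.333 CPM. At the floor lay APOF with 4 counts, CETP with 2 counts and APOC4 with 0 counts. APOC2 and APOC4 share 53.5% and 82.9% of their exon bases with a readthrough gene that had 0 counts, so both are uncertain. Among the lowest were also LPA, which encodes apolipoprotein(a), at 0.255 ± 0.244 CPM and APOA5 at 0.447 ± 0.124 CPM.

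Coagulation genes were read for most members, with 14 of 20 at 10 CPM or more and a median of 27.1 CPM. The fibrinogen chain FGB was at 189.8 ± 2.02 CPM per kb, prothrombin, F2, at 173 ± 7.24 CPM per kb, the chain FGA at 93.4 ± 0.657 CPM per kb and FGG at 64.1 ± 1.56 CPM per kb. The protein C gene PROC was at 85.7 ± 5.14 CPM and plasminogen, PLG, at 66.0 ± 1.35 CPM. F9, the clotting factor lacking in haemophilia B, had 0 counts in any sample, which allows at most 3 counts or 0.106 CPM in the shallowest library. KLKB1, prekallikrein, was at 0.790 ± 0.0523 CPM and HRG at 0.957 ± 0.135 CPM. Fibrinogen and prothrombin thus stood beside a clotting factor that was not detected.

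Complement genes were read for fewer members, with 10 of 20 at 10 CPM or more and a median of 12.9 CPM. C3, the central component, was at 100.1 ± 1.12 CPM per kb and held 67.2% of the list's counts. C4BPA, an inhibitor in plasma, was at 17.2 ± 0.786 CPM per kb and C5 at 11.7 ± 0.247 CPM per kb. C9, the last subunit of the membrane attack pore, lay at the floor with 4 counts. C6, another subunit of the pore, was at 0.561 ± 0.218 CPM, C8G at 0.401 ± 0.140 CPM, C4A at 0.451 ± 0.0167 CPM and C4B at 0.352 ± 0.187 CPM. C4A and C4B are near-identical copies whose reads cannot be assigned with certainty.

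Genes of the acute phase response and of iron handling were divided. FTL alone held 78.6% of the counts of this list. The ferritin heavy chain FTH1 was at 144, 91.5 and 134 CPM, lowest in replicate 2, and its level per kb was 61.6 ± 14.01 CPM per kb against 5190.1 ± 164 CPM per kb for FTL. FTH1 has many processed copies in the genome and shares 63.2% of its exon bases with BEST1 on the opposite strand, so its level is uncertain. TFRC, the transferrin receptor, was at 45.1 ± 0.646 CPM per kb and SLC40A1, the iron exporter ferroportin, at 19.96 ± 0.479 CPM per kb. The hormone HAMP, hepcidin, was at 0.181 ± 0.0664 CPM, CRP at 0.761 ± 0.219 CPM, SAA4 at 0.549 ± 0.102 CPM, SAA2 at 2.17 ± 0.140 CPM and SAA1 at 4.35 ± 0.646 CPM. SAA4 shares 75.6% and SAA2 14.2% of their exon bases with other genes at 0 counts, and SAA1 and SAA2 are near-identical copies. LBP, which binds bacterial lipopolysaccharide, was at 57.4 ± 1.54 CPM. CRP and the 3 serum amyloid genes were therefore below 5 CPM in the mean of these untreated cells.

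**Figure D2:**
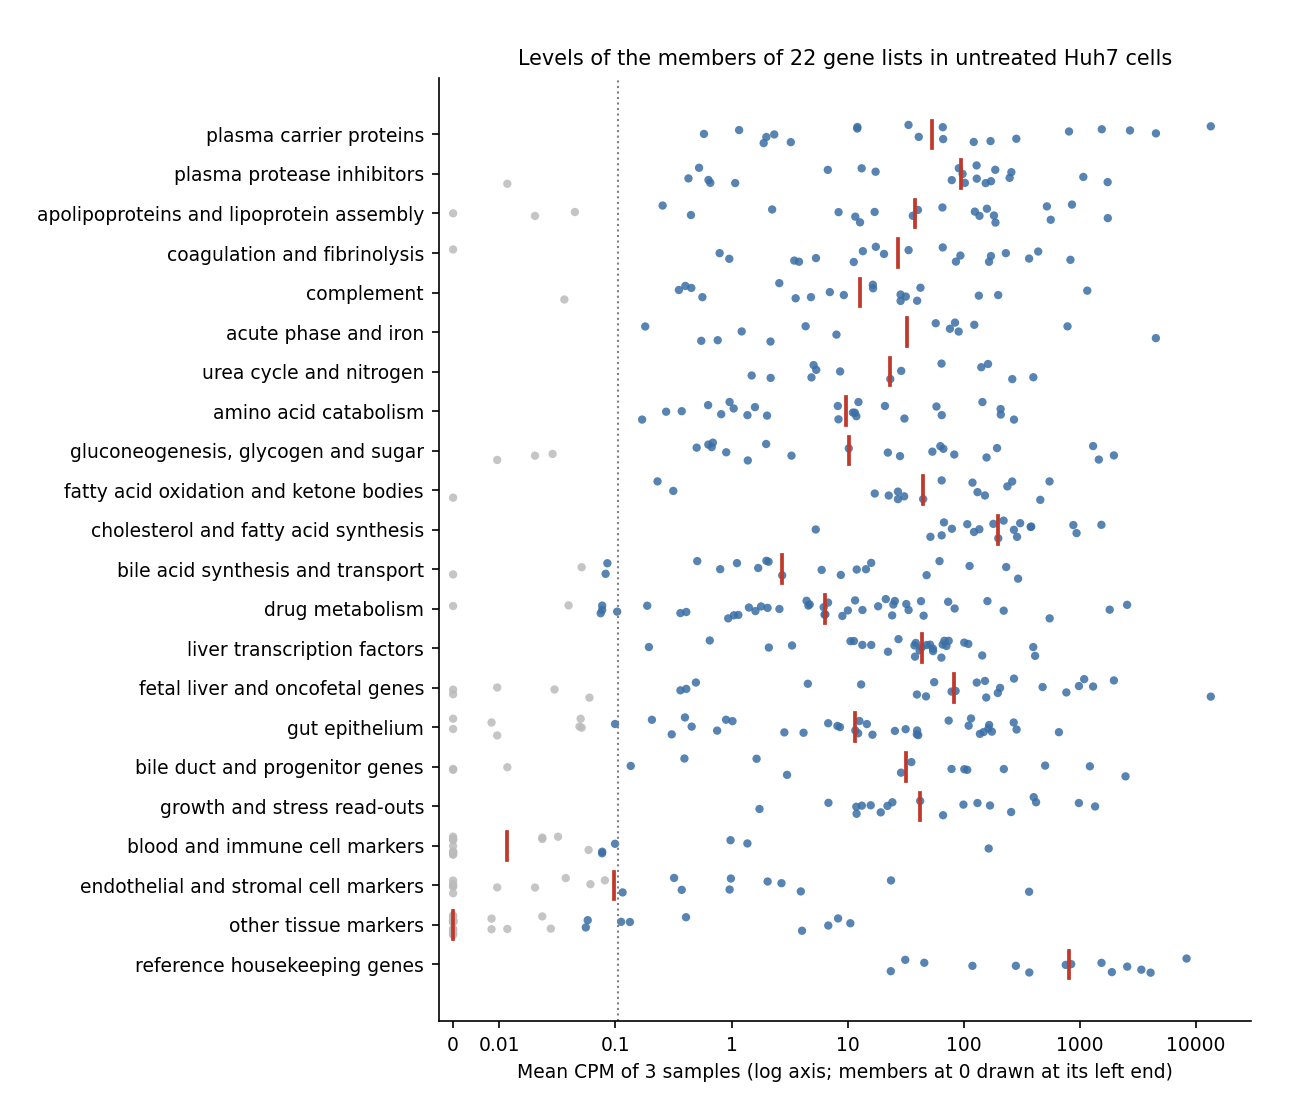
Mean CPM of the members of 22 gene lists in untreated Huh7 cells, on a log axis with members without counts drawn at its left end. Each point is a gene, grey points lie at 3 or fewer counts in every sample, red bars are list medians and the dotted line marks 3 counts in the shallowest library. The medians run from 799.8 CPM for housekeeping genes and 198 CPM for cholesterol and fatty acid synthesis down to 2.73 CPM for bile acids and 0 for markers of other tissues.

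The urea cycle and nitrogen list had 4 of 13 members at 100 CPM or more and a median of 23.3 CPM. In the urea cycle, the entry enzyme CPS1 was at 5.09, 5.17 and 5.84 CPM, OTC at 4.49, 4.89 and 5.27 CPM and ARG1, the arginase of hepatocytes, at 9.27, 8.16 and 8.44 CPM, and no sample reached 10 CPM for any of the 3 genes. ASL was at 64.4 ± 1.98 CPM and ASS1 at 29.0 ± 0.941 CPM. The highest per kb were SLC25A13, a mitochondrial aspartate carrier, at 43.7 ± 0.814 CPM per kb, GLUL, glutamine synthetase, at 31.5 ± 0.558 CPM per kb and GLUD1 at 18.3 ± 0.463 CPM per kb. GLS2, the glutaminase of liver, was the lowest member in CPM. Its level per kb was 0.360 ± 0.0765 CPM per kb, and of its exon bases 77.1% overlap SPRYD4 on the opposite strand.

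Amino acid breakdown had 12 of 24 members at 10 CPM or more. HGD, which opens the ring of homogentisate, was at 77.8 ± 1.81 CPM per kb, MAT2A, the methionine adenosyltransferase of cells outside adult liver, at 60.4 ± 1.43 CPM per kb and PCBD1 at 46.4 ± 0.568 CPM per kb. The steps of tyrosine breakdown were uneven, with TAT, the aminotransferase, at 0.297 ± 0.0299 CPM per kb, HPD, the next enzyme, at 0.617 ± 0.0891 CPM per kb and FAH, the last enzyme, at 3.04 ± 0.103 CPM per kb beside the higher HGD. MAT1A, the liver form of methionine adenosyltransferase, was at 5.73 ± 0.289 CPM per kb and so below MAT2A. The lowest in CPM were SDS at 0.1699 ± 0.0994 CPM, GNMT at 0.274 ± 0.114 CPM and PRODH2 at 0.373 ± 0.0519 CPM.

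Sugar metabolism was read mostly in the genes of glycolysis. ALDOA, LDHA and PKM, the forms of aldolase, lactate dehydrogenase and pyruvate kinase that most dividing cells use, were at 339.9 ± 10.9 CPM per kb, 242 ± 1.25 CPM per kb and 229 ± 3.28 CPM per kb. PKLR, the hepatic form of pyruvate kinase, was at 0.158 ± 0.0347 CPM per kb. HK2, a hexokinase, was at 83.3, 83.1 and 82.5 CPM, whereas HK1, the form found in most tissues, had 2 counts in the 3 samples together. Of gluconeogenesis, the final enzyme G6PC had 3 counts, PCK1 was at 1.38 ± 0.0958 CPM and FBP1 at 0.675 ± 0.138 CPM, while PCK2, the mitochondrial form of PCK1, was at 53.7 ± 1.19 CPM. The glucose transporter SLC2A1 was at 66.8 ± 3.70 CPM, SLC2A2, that of hepatocytes, at 10.2 ± 0.723 CPM and SLC2A3 at 0.691 ± 0.264 CPM.

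Of fatty acid oxidation and ketone body formation, 14 of 17 genes reached 10 CPM. The cytosolic carrier FABP1 was at 227 ± 7.04 CPM per kb, ACADVL, the first dehydrogenase for long chains, at 94.8 ± 1.20 CPM per kb and HADHA at 54.9 ± 0.617 CPM per kb. CYP4A11, a fatty acid hydroxylase, had no count, and PPARGC1A, a coactivator of fasting genes, was at 0.231 ± 0.0507 CPM and BDH1 at 0.315 ± 0.0493 CPM.

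Cholesterol and fatty acid synthesis had the highest median of the metabolic lists, 198 CPM, with 18 of 19 members at 10 CPM or more and 14 at 100 CPM or more. The desaturase SCD was at 168 ± 5.32 CPM per kb and HMGCS1, which starts the mevalonate pathway, at 142 ± 2.85 CPM per kb. HMGCS1 overlaps a gene on the opposite strand over 37.7% of its exon bases. CYP51A1, which removes a methyl group from lanosterol, was the lowest member in CPM, at 6.39, 4.19 and 5.38 CPM.

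Bile acid genes had the lowest median of the metabolic lists, 2.73 CPM. CYP7A1, the rate-limiting enzyme of bile acid synthesis, had no count in any sample, and CYP7B1 with 5 counts also lay at the floor. CYP8B1 had 9 counts and SLC10A1, the bile acid importer that hepatitis B virus uses for entry, 8 counts in the 3 samples together. ABCB11, the exporter into bile, was at 0.507 ± 0.293 CPM. In contrast the receptor FGFR4 was at 61.2 ± 4.85 CPM per kb, its partner KLB at 18.7 ± 0.549 CPM per kb and their ligand FGF19, a hormone that the ileum makes and that represses CYP7A1 in liver, at 33.99 ± 0.293 CPM per kb. FGF19 was read at 62.5, 61.6 and 61.6 CPM. ABCC2, a canalicular exporter of conjugates, was at 29.6 ± 2.05 CPM per kb. The ligand, its receptor and the co-receptor were thus all read and CYP7A1 was not detected, and no link between these levels was tested.

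Drug metabolism was dominated by 3 genes that held 84.5% of the list's counts. GSTP1 was at 1025 ± 27.5 CPM per kb, ALDH1A1 at 899.7 ± 1.08 CPM per kb and NQO1, a quinone reductase of the NRF2 response, at 185 ± 2.79 CPM per kb. Of the cytochrome P450 genes, CYP1A1, which is induced through the aryl hydrocarbon receptor, was at 214, 221 and 227 CPM. CYP2B6 was at 24.2 ± 0.919 CPM, CYP2E1 at 6.78 ± 1.05 CPM and CYP3A5 at 1.41 ± 0.503 CPM. CYP3A4, the main P450 of adult liver, had 8 counts over the 3 samples, CYP2A6 8 counts and CYP1A2 7 counts, and CYP3A7, the fetal relative of CYP3A4, was at 0.363 ± 0.0404 CPM. Of the alcohol dehydrogenases, ADH1A lay at the floor with 4 counts, and ADH1B had 10 counts. GSTT1, a gene that many people lack, had no count. Genes of the CYP2C, CYP3A, UGT2B, GSTA and AKR1C families resemble each other, and reads shared by such copies make their single levels uncertain.

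The transcription factors of the hepatocyte were present nearly throughout, with 25 of 29 at 10 CPM or more and none at the floor. HNF4A, a nuclear receptor at the head of the circuit, was at 411, 387 and 393 CPM. XBP1, which drives the secretory apparatus, was at 136 ± 0.582 CPM per kb, CREB3L3, a factor of the endoplasmic reticulum in liver and gut, at 54.5 ± 1.93 CPM per kb and HNF4A at 39.1 ± 1.25 CPM per kb. FOXA1, FOXA2 and FOXA3 were at 68.2 ± 0.928 CPM, 51.3 ± 1.12 CPM and 43.5 ± 2.45 CPM, and PROX1 at 101.1 ± 7.62 CPM. The lowest was CEBPA, a factor of mature hepatocytes, with 3, 9 and 7 counts or 0.194 ± 0.116 CPM. CEBPA overlaps antisense genes over 43.9% of its exon bases, and its relatives CEBPB and CEBPD were at 15.98 ± 0.445 CPM and 22.3 ± 0.384 CPM. NFIB was at 0.650 ± 0.273 CPM and NR0B2, a repressor that bile acids induce, at 2.10 ± 0.215 CPM.

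Among fetal liver and oncofetal genes, 19 of 28 reached 10 CPM and 5 lay at the floor. The list includes ALDOA and PKM, the forms that most dividing cells use, which are not particular to fetal liver. After AFP, the highest per kb were ALDOA at 339.9 ± 10.9 CPM per kb, GPC3, a cell-surface proteoglycan used as a marker of liver cancer, at 299.6 ± 2.41 CPM per kb and PKM at 229 ± 3.28 CPM per kb. Per kb of the canonical transcript ALDOA was at 794, GPC3 at 434 and PKM at 853 CPM per kb, so their order rests on the length used. GPC3 was read at 975, 991 and 984 CPM. The growth factor IGF2 was at 1091 ± 63.5 CPM and the mRNA-binding proteins IGF2BP1, IGF2BP2 and IGF2BP3 at 478 ± 31.6 CPM, 156 ± 7.93 CPM and 47.3 ± 0.385 CPM. H19, the non-coding RNA that neighbours IGF2 and is imprinted in the opposite way, was at 0.493 ± 0.109 CPM. IGF2 shares 25.7% of its exon bases with readthrough genes that had 0 counts. LIN28B, which blocks the maturation of the microRNA let-7, was at 157, 153 and 148 CPM, while its relative LIN28A had 1 count in each sample. HMGA2, a let-7 target, was at 197 ± 10.2 CPM, PEG10 at 766 ± 10.8 CPM and SALL4 at 13.1 ± 0.605 CPM. DLK1, a marker of fetal hepatoblasts, had no count, nor had PEG3, of whose exon bases 12.9% are shared with ZIM2. NKD1 had 1 count and GPC1, a relative of GPC3, 6 counts. The fetal profile was therefore uneven, with AFP, GPC3, IGF2 and LIN28B each above 100 CPM while DLK1, PEG3 and LIN28A lay at the floor and H19 was below 1 CPM.

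The intestinal profile was likewise partial. Of the gut epithelium genes, 21 of 41 reached 10 CPM, 10 reached 100 CPM and 7 lay at the floor. For comparison, 45.9% of all protein-coding genes reached 10 CPM, 11.2% reached 100 CPM and 27.9% lay at the floor. CDH17, a cadherin of the intestinal lining, was at 656, 666 and 662 CPM or 170.4 ± 1.26 CPM per kb. Of the brush border genes, the protease MEP1A was at 53.6 ± 0.540 CPM per kb, the actin bundler VIL1 at 39.1 ± 0.737 CPM per kb, ANPEP at 32.4 ± 0.326 CPM per kb and DPP4 at 19.8 ± 0.560 CPM per kb. Some of these, such as DPP4, ANPEP and A1CF, are also made by hepatocytes. SI, the sucrase-isomaltase that digests sugar in the small intestine, was at 118.8, 108 and 104 CPM and LCT, lactase, at 37.2, 42.4 and 42.1 CPM. GUCY2C, the receptor for guanylin, was at 35.4 ± 0.288 CPM per kb and MUC13, a membrane mucin, at 39.5 ± 1.09 CPM per kb. TFF2, a trefoil peptide, was at 45.2 ± 0.946 CPM per kb and LGR5, a stem cell receptor, at 16.4 ± 0.243 CPM.

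Other intestinal genes were barely read or not at all. CDX1, the closest relative of CDX2, had 1 count in all samples together, against 11817 counts for CDX2. MUC2, the secreted mucin of goblet cells, had 1 count, ATOH1, which specifies secretory cells, 5 counts, FABP2, the fatty acid carrier of enterocytes, 5 counts and SLC5A1, their glucose transporter, 5 counts. The crypt genes OLFM4 and ASCL2 had no count. CEACAM5 had 10 counts, CHGA, a marker of endocrine cells, was at 0.206 ± 0.0911 CPM, KRT20 at 0.752 ± 0.1095 CPM and LGALS4 at 1.02 ± 0.0914 CPM. Members at the floor thus came from absorptive cells (FABP2 and SLC5A1), secretory cells (MUC2 and ATOH1) and crypts (OLFM4 and ASCL2), and each of these groups also had members that were read, such as SI, TFF3 at 14.6 ± 0.295 CPM and LGR5. Per kb CDX2 was 1.499 ± 0.0801 times ISX, and HNF4A was 1.19 ± 0.0179 times CDX2 on merged exons and 2.55 ± 0.0384 times CDX2 on canonical transcripts.

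**Figure D3:**
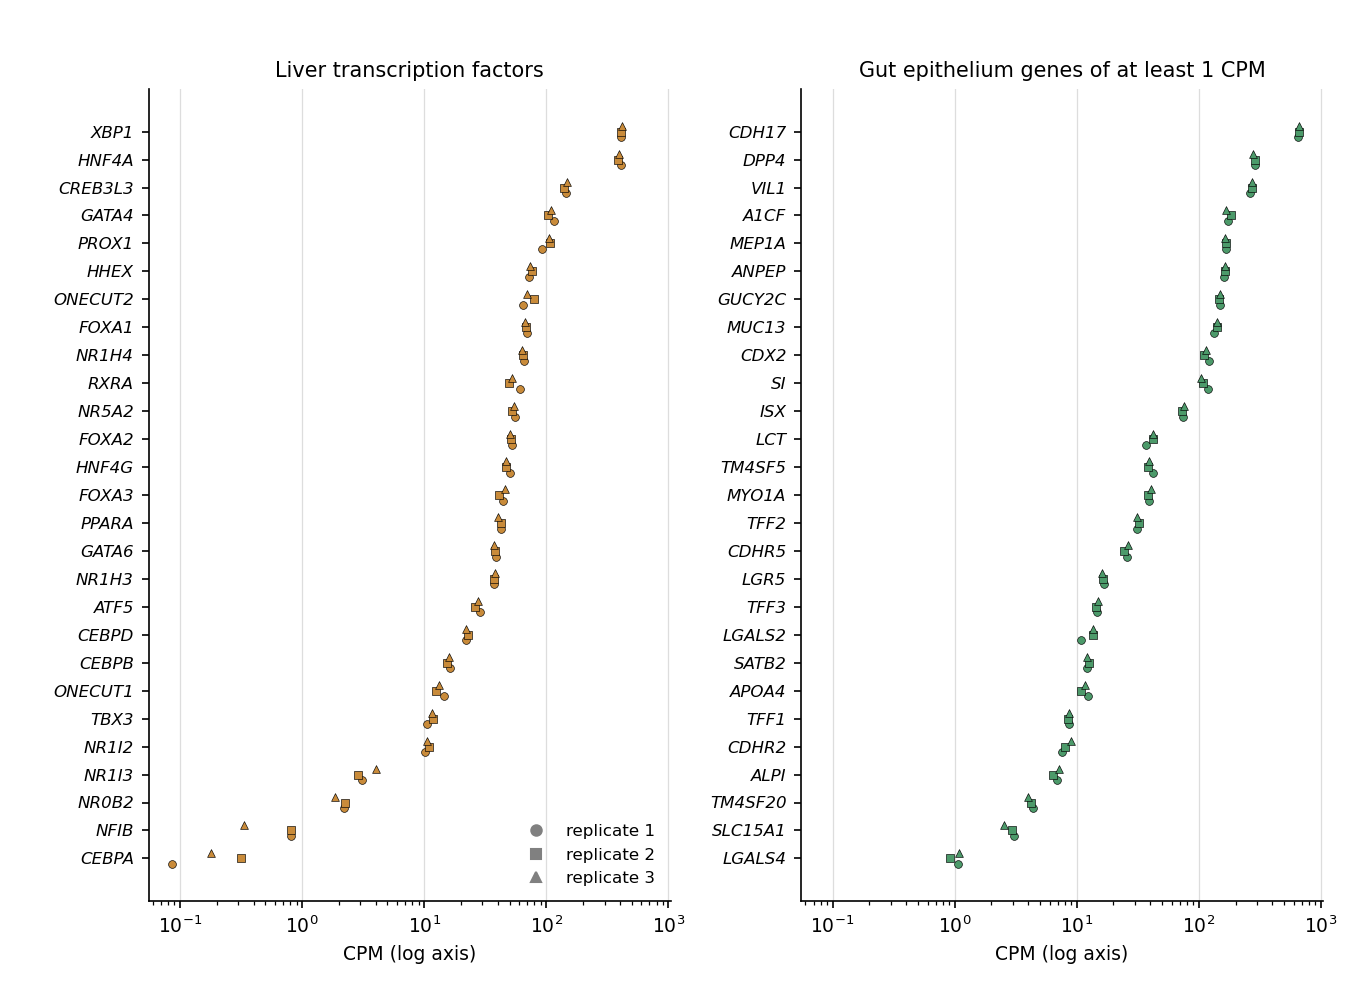
CPM of each sample, on log axes, for 27 of the 29 liver transcription factors and for the gut epithelium genes with a mean of at least 1 CPM. Circles, squares and triangles are replicates 1, 2 and 3. HNF4A lies at a mean of 397 CPM, CDX2 at 116 CPM and CEBPA at 0.194 CPM, and the 3 samples of CEBPA lie farther apart on the log axis than those of HNF4A or CDX2.

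Markers of bile ducts and of liver progenitors were mixed. The simple-epithelium keratins KRT18 and KRT8, which hepatocytes also have, were at 398 ± 14.5 CPM per kb and 359.8 ± 24.7 CPM per kb, and ANXA4 was at 45.5 ± 0.829 CPM per kb. Per kb of the canonical transcript KRT18 was at 864 and KRT8 at 1388 CPM per kb, the reverse order. SOX9, a factor of duct cells, was at 101.2 ± 7.56 CPM, SOX4 at 222 ± 9.12 CPM, PROM1 at 107 ± 1.60 CPM and EPCAM at 78.6 ± 2.95 CPM. KRT19, a keratin of ducts, was at 28.9 ± 2.16 CPM, while KRT7, its usual companion, had no count. CD24 had no count under its identifier, which has no entry in the annotation used here, and its level is not given. It remains in the numbers of list members at the floor and without a count. SPP1, osteopontin, was at 1.64 ± 0.221 CPM and MUC1, a membrane mucin, at 0.393 ± 0.0973 CPM.

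Genes of growth and stress were read for all 19 members above 1 CPM. The proliferation genes CCNB1, TOP2A and MKI67 were at 105 ± 2.64 CPM per kb, 65.9 ± 2.27 CPM per kb and 31.2 ± 3.21 CPM per kb, and CCND1 was at 169 ± 7.98 CPM. MKI67 was at 361, 443 and 399 CPM and lowest in replicate 1. HSPA5, the chaperone of the endoplasmic reticulum, was at 207 ± 5.01 CPM per kb and CTNNB1, beta-catenin, at 83.5 ± 1.01 CPM per kb. AXIN2, a target of beta-catenin, was the lowest of the list in CPM at 1.74 ± 0.243 CPM, with 25.3% of its exon bases shared with a gene at 0 counts, and TERT, the catalytic subunit of telomerase, was at 6.84 ± 0.3395 CPM. The stress genes DDIT3, ATF3 and HSPA1A were at 15.8 ± 1.94 CPM, 19.3 ± 0.456 CPM and 11.95 ± 0.326 CPM, and the metallothioneins MT2A and MT1E at 42.2 ± 5.90 CPM and 11.9 ± 1.805 CPM. Of the housekeeping genes, all 14 were above 10 CPM. At the upper end were GAPDH at 1414 ± 13.8 CPM per kb, ACTB at 924 ± 46.6 CPM per kb and EEF1A1 at 826 ± 12.2 CPM per kb. Per kb of the canonical transcript GAPDH was at 2637, EEF1A1 at 2366, RPLP0 at 2317 and ACTB at 2246 CPM per kb. Their order thus rests on the length used. HPRT1 and TBP, often used to scale PCR data, were at 23.6 ± 1.27 CPM and 31.4 ± 0.498 CPM.

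Markers of other cell types were mostly at the floor or below 1 CPM. Below 1 CPM lay 4 of the blood and immune markers, 5 of the endothelial and stromal markers and 5 of the markers of other tissues. Of 20 blood and immune markers, 14 lay at the floor, among them PTPRC, MS4A1, NKG7, CD163, VSIG4, CLEC4F, HBA1, HBA2, HBB, HBG1, ALAS2 and PF4, and the fetal globin HBG2, which shares 40.7% of its exon bases with other genes, had 7 counts. The highest was LYZ, lysozyme, at 166, 164 and 162 CPM, a gene that epithelia also secrete and that overlaps another gene on the opposite strand over 34.7% of its exon bases. CD14 was at 1.37 ± 0.284 CPM and MARCO at 0.981 ± 0.175 CPM. Of 20 endothelial and stromal markers, 10 lay at the floor, PECAM1, VWF, KDR, LYVE1, CLEC4M, DCN, ACTA2, DES, LRAT and HGF. PECAM1 has no annotation entry here, so its place at the floor is uncertain. VIM, an intermediate filament of mesenchymal and many cultured cells, was at 366 ± 14.3 CPM, RELN at 23.6 ± 2.65 CPM and RGS5 at 3.95 ± 0.614 CPM. For markers of other tissues, 21 of 30 lay at the floor. At the floor were, among others, INS and GCG of the islets, PRSS1 and AMY2A of the pancreas, MYH7, TNNT2, MYH2 and CKM of muscle, GFAP and NEUROD1 of nerve tissue, SFTPC and SCGB1A1 of lung, UMOD of kidney, KLK3 and PRM1 of prostate and testis, KRT5 and KRT14 of skin, and the pluripotency genes NANOG and SOX2. The highest of the others in CPM were SNAP25 at 10.6 ± 0.714 CPM, DSG3 at 8.28 ± 0.229 CPM, SYP at 6.82 ± 0.273 CPM and TG, thyroglobulin, at 4.05 ± 0.318 CPM.

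Families were counted after their levels had been seen. Of 381 olfactory receptor genes, 368 lay at the floor and 1 reached 1 CPM. At the floor were also 366 of 371 immunoglobulin and T cell receptor segments, 86 of 92 keratin-associated protein genes, 38 of 39 beta-defensins and 17 of 24 bitter taste receptors. Among all protein-coding genes the share at the floor was 27.9%.

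The 3 samples agreed closely but differed by more than counting error. Over 15151 genes with at least 10 counts in every sample, the log2 CPM of the sample pairs had Pearson correlations of 0.996 to 0.997 and Spearman correlations of 0.997 to 0.998 across genes, which are not independent replicates. The squared differences of replicates 2 and 3 were 3.03 times those expected from Poisson counting, against 5.95 for replicates 1 and 2 and 5.75 for replicates 1 and 3, so no pair looked like 1 library deposited again. The common biological coefficient of variation (BCV) estimated by edgeR, the spread between samples beyond counting error, was 3.93%. Without replicate 1 it was 2.93%, without replicate 2 3.57% and without replicate 3 5.15%. By level, the median trended BCV was 8.05% for 1880 genes below 1 CPM and 3.58% for 2128 genes from 100 to 1000 CPM. Of 9222 gene symbols with a mean of at least 10 CPM, with rows that share a symbol summed, 6586 (71.4%) had a coefficient of variation (CV) under 5%. A CV of 20% or more was found for 11.

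The 10 genes with the largest spread beyond counting error were named by rule. They were RP11-159D12.2, UBR4, AHNAK, FTH1, KMT2D, RUSC1-AS1, EIF4A1, MZT2A, MT-ATP8 and the long non-coding RNA gene ENSG00000260804, with a CV from 27.0% for RP11-159D12.2 to 19.97% for MT-ATP8. UBR4, a ubiquitin ligase, was at 156, 254 and 207 CPM in replicates 1, 2 and 3, AHNAK, a giant scaffold protein, at 313, 499.9 and 389 CPM and KMT2D, a histone methyltransferase, at 85.6, 132 and 104 CPM. These genes, whose canonical transcripts have 15892, 18761 and 20635 bases, had the same sample order, with replicate 2 highest and replicate 1 lowest. APOB at 1476, 1996 and 1756 CPM and FN1 at 3220.3, 3805 and 3544 CPM had that order too. EIF4A1, a translation factor, was read at 14.4 ± 3.07 CPM and shares 47.4% of its exon bases with small nucleolar RNA genes, so its level is uncertain. MT-ATP8 shares 22.2% of its bases with MT-ATP6.

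Across 9121 nuclear genes of at least 10 CPM with an annotation entry, each sample's deviation from the mean moved with gene properties. For the 195 genes with canonical transcripts of 12000 bases or more, the median log2 deviation was -0.05 in replicate 1, 0.09 in replicate 2 and -0.02 in replicate 3, while for the 1546 genes of 1000 to 2000 bases it rounded to 0.00 in each sample. For the 1010 genes with a GC content of 60% or more it was 0.09 in replicate 1, -0.07 in replicate 2 and -0.01 in replicate 3. Across genes, the Spearman correlation of the deviation with GC content was 0.23, -0.42 and 0.23 in replicates 1, 2 and 3, and with canonical length -0.02, 0.21 and -0.25. The deviations of a gene cancel out over the 3 samples, so a shift in 1 sample moves the others the opposite way. The values of the samples are therefore not separate observations. In the study's quality data, 1 untreated sample has 23958 detected transcripts, the number of genes with a count in replicate 2. Of the 3 untreated samples it had the lowest RNA integrity and the lowest share of exon-mapped reads. The sample farthest from the others beyond counting error was, however, replicate 1. Its pairs had ratios to Poisson counting of 5.95 and 5.75, against 3.03 for replicates 2 and 3. Genes share libraries and composition, so these are descriptions without a test, and what set the samples apart was not tested. APOB, with a canonical transcript of 14121 bases, belongs to the longest group.

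**Figure D4:**
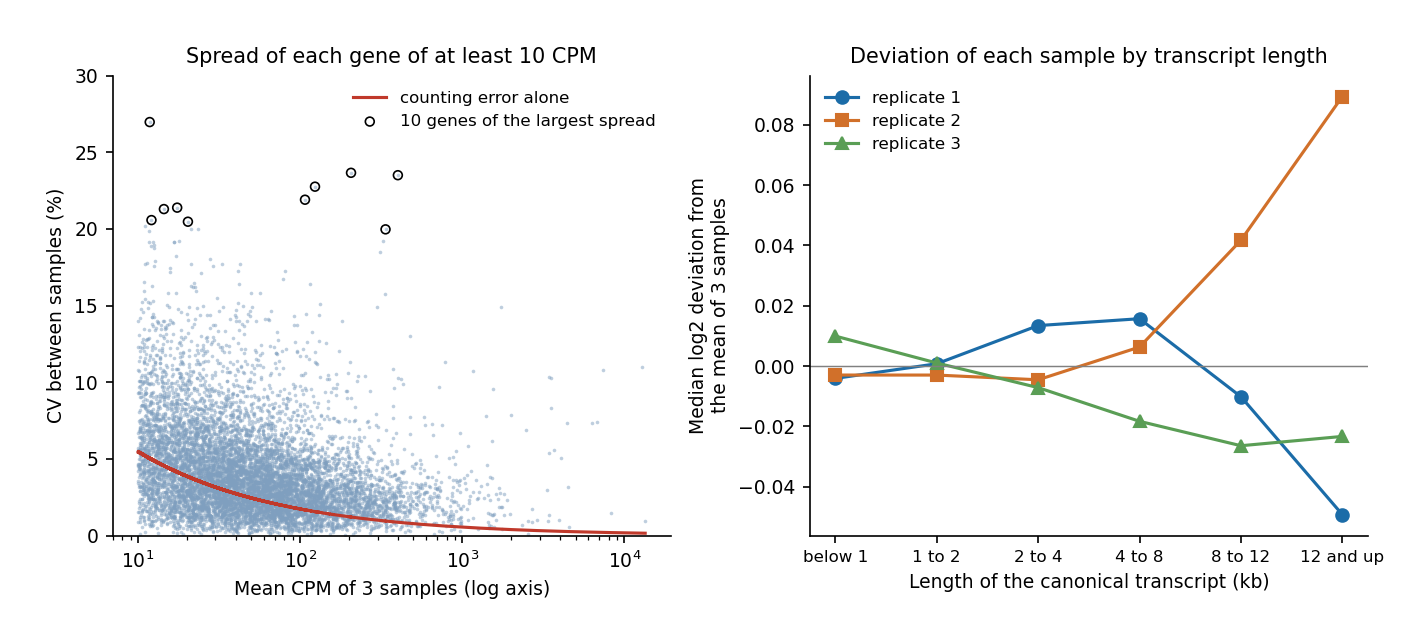
Left, the CV between the 3 samples of each gene with a mean of at least 10 CPM against that mean on a log axis, with the CV of counting alone as a red line and circles around the 10 genes with the largest spread. Right, the median log2 deviation of each sample from the mean of the samples for genes grouped by canonical transcript length, which reaches 0.09 in replicate 2 and -0.05 in replicate 1 for the longest transcripts.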

How the data were processed

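RNA of 3 untreated samples of Huh7 cells was analysed out of 12 samples. Per the labels and the study's methods, the authors extracted total RNA, made libraries from polyadenylated RNA with a stranded TruSeq kit and ran the NGI-RNAseq pipeline, with GRCh37 as the genome and featureCounts as the counter of reads per gene. The values deposited by the authors are raw counts, whole numbers without normalization. The annotation release and the strand setting are not given in the sources used here, so genes that overlap others or have near-identical copies are uncertain.

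Counts were divided by the library total and multiplied to CPM. Rows that share a symbol were summed for the genes named. Lengths, positions and overlaps came from a GENCODE annotation lifted to GRCh37, in which 8012 rows have no entry (0.504% of counts). Overlaps were counted only between genes that have a row in the table, and those of at least 10% on the same strand are stated where a level above the floor is given. No condition was compared and no p-value computed. TMM scaling and dispersions used edgeR 4.0.16 in R 4.3.3 on genes with at least 10 counts in every sample, and the steps were tested on simulated data. Python was 3.11.15 and pandas 2.3.3. Promoters were RefSeq sequences of GRCh38.p14. Motif letters were searched in 300 bases a start.

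The genes named are the 20 highest by CPM and per kb, the highest and lowest members of each list with all at the floor, the 5 markers and the 10 with the largest spread. Other members are examples of their lists chosen after their values were seen. XIST, Y-linked genes and some other members that these rules select are not reported here. The description, the lists and the rules were chosen with earlier results of these data known. Alternatives were TMM scaling, totals without mitochondrial genes, other count thresholds, thinned counts, other lengths, the gene strand only for motifs and each sample left out. The canonical transcript length was added after seeing the data.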

Additional observations from a re-analysis of the deposited data

How the results depend on the processing

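No paired analysis was possible because the values come from no test and from 1 group. With mitochondrially encoded genes left out of the library total, the ribosomal protein genes took 5.91% of counts, the plasma protein genes 3.96%, and the 10, 100 and 1000 highest genes 5.57%, 18.5% and 51.4%, and of 289 named nuclear genes of at least 10 CPM, 235 rose by more than their SD. Under TMM scaling the means of 299 named genes of at least 10 CPM changed by -0.0280% to 0.0574%, and with a sample left out by -12.4% to 15.5%. The common BCV ran from 2.93% to 5.15% when each sample was left out. On the strand of the gene alone, TATAAA was present in 546 genes of at least 10 counts and 2455 of all genes with a promoter, and GTTAAT in 298 and 1168 of them, and in 1 coagulation, 5 gut and 2 drug metabolism genes. The ranks among nuclear genes depended on length. By CPM alone AFP ranked 1, ALB 3, APOB 24 and ISX 3032. By the longest transcript AFP ranked 1. By the canonical transcript, a choice made after seeing the data, AFP ranked 1, ALB 11, APOB 533, CDX2 2219 and ISX 3011, against 2, 6, 272, 1284 and 2004 for AFP, ALB, APOB, CDX2 and ISX by merged exons. With counts thinned to the smallest library, 35912 genes had no count in any sample. Depth limits genes below 0.106 CPM, which are not shown to be unexpressed.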

Other observations

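Gene groups outside the lists above were read after the levels had been seen, and their values are given without a test. Huh7 cells are widely used to grow hepatitis C virus, and the genes of its entry were read throughout. CLDN1, a tight junction protein, was at 304 ± 6.54 CPM per kb, SCARB1, a receptor for high-density lipoprotein, at 18.6 ± 0.406 CPM per kb, CD81, a tetraspanin, at 6.996 ± 0.223 CPM per kb and OCLN at 2.63 ± 0.0617 CPM per kb. Per kb of the canonical transcript CLDN1 was at 320, SCARB1 at 81.4, CD81 at 37.7 and OCLN at 4.80 CPM per kb. Of the genes that sense viral nucleic acid, DDX58, which encodes RIG-I, was at 10.4, 10.8 and 9.83 CPM and its adaptor MAVS at 133, 126.98 and 125.8 CPM. IFIH1, the related sensor MDA5, was at 0.483 ± 0.175 CPM, TLR3 at 0.155 ± 0.145 CPM and TMEM173, the adaptor STING, at 0.836 ± 0.103 CPM, all below 1 CPM. The interferon-induced genes IFIT1 and MX1 were at 0.721 ± 0.164 CPM and 0.177 ± 0.0540 CPM.

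Of 39 HOX genes, which set position along the body axis in the embryo, 20 reached 1 CPM and 10 lay at the floor. For comparison, 59.8% of all protein-coding genes reached 1 CPM and 27.9% lay at the floor. Summed CPM, not corrected for length, was 30.1 for the HOXA cluster, 13.01 for HOXB, 79.3 for HOXC and 25.9 for HOXD. HOXC10 was at 33.9 ± 1.95 CPM and HOXC6, which shares 24.9% of its exon bases with other counted genes on the same strand, at 21.9 ± 0.691 CPM. Beside the intestinal CDH17, the epithelial cadherin CDH1 was at 21.0 ± 0.729 CPM per kb and the neural cadherin CDH2, which hepatocytes also have, at 21.5 ± 0.490 CPM per kb, while CDH3 had no count. Per kb of the canonical transcript CDH1 was at 26.6 and CDH2 at 46.0 CPM per kb, so their closeness rests on the length used. Of the long non-coding RNAs, FAM211A-AS1 was at 579.6 ± 10.8 CPM, DANCR at 369 ± 9.06 CPM and LINC00261, a neighbour of FOXA2, at 185 ± 7.81 CPM.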
